A study of Mus musculus with 6 samples.

Results

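The 10 genes described here encode the main parts of the MHC class I antigen presentation pathway. They were chosen by name, as the rows of the deposited CPM and TPM tables for *H2-K1*, *H2-D1*, *H2-T23*, *B2m*, *Tap1*, *Tap2*, *Tapbp*, *Psmb8*, *Psmb9* and *Nlrc5*, and all 10 were found among 24421 rows. RNA-seq was performed on astrocytes isolated by MACS (magnetic-activated cell sorting) with antibodies to the astrocyte surface antigen ACSA-2, from the hippocampus of adult *Siglech* dtr/dtr mice on the C57BL/6 background. All mice, including the PBS controls, carried 2 copies of the dtr allele, in which a diphtheria toxin receptor is expressed from the *Siglech* locus, so that DT ablates cells that express Siglec-H, which in the brain are nearly all microglia. The 3 PBS libraries came from mice injected intraperitoneally with PBS and the 3 DT libraries from mice injected with diphtheria toxin (DT) at 50 µg/kg, both 2 days before sampling. Each library was a pool of hippocampi from 2 mice. Cells positive for CD11b were removed before the selection with ACSA-2. Mice lacking the dtr allele and given DT were not analysed here, so an effect of DT through microglia and one outside them cannot be told apart in these libraries.

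MHC class I molecules display peptides from inside the cell to CD8+ T cells and NK cells. A proteasome, in which immune subunits can replace constitutive ones, cuts proteins into peptides, the TAP transporter carries these into the endoplasmic reticulum, and tapasin holds the transporter to an empty complex of heavy chain and β2-microglobulin until a peptide binds. Interferons raise most genes of this pathway, and NLRC5 is a coactivator at class I gene promoters. In healthy brain, class I levels are low in most neural cells and higher in endothelium and microglia, and astrocytes are known to raise them in inflammation.

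The libraries held 21704891 to 32933975 reads assigned to genes, as the steps between the deposited CPM values show. All 12 astrocyte markers of a fixed list were detected, with summed levels of 28410 to 29671 TPM after PBS and 31636 to 34088 TPM after DT. The summed level of 15 microglia markers was 325 to 406 TPM after PBS and 189 to 215 TPM after DT, and 8 of the 15 passed the threshold as lower. *Siglech* itself had no read in any DT library. No library went against its label.

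Of the 10 genes, 8 lie on chromosome 17 of mm10, between 33915899 and 36032855, a stretch of 2.12 Mb that holds the mouse MHC. *Psmb9*, *Tap1*, *Psmb8* and *Tap2* are neighbours there, within 34.3 kb between 34181987 and 34216321. *B2m* is on chromosome 2 (chr2:122147686-122153083, plus strand) and *Nlrc5* on chromosome 8 (chr8:94434356-94527272, plus strand). According to GENCODE M21, *Tapbp* (chr17:33915899-33929292, plus strand) overlaps *Zbtb22* on the same strand, and the starts of *Tap1* and *Psmb9* overlap on opposite strands. The library kit was stranded and the mapping strand-aware, but how strand was used in counting is not given in the sources used here, so reads in these overlaps are uncertain.

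The DNA upstream of the classical chains is shown because these 3 genes had the highest levels of the 10. The start sites and sequences are those of RefSeq on GRCm38.p6, whose promoter table holds 8 of the 10 genes. Capitals mark matches, on either strand, to 4 motifs, namely the interferon-stimulated response element (ISRE, 2 copies of GAAA with 2 bases between them), the gamma-activated site (GAS, TTCNNNGAA), the CCAAT box (CCAAT) and the kappa B motif. The sequences are the 200 bases before the start sites of *H2-K1* (chr17:34000348-34000547, minus strand), *H2-D1* (chr17:35262894-35263093, plus strand) and *B2m* (chr2:122147487-122147686, plus strand). GENCODE M21 places the start of *H2-D1* at 35262730, so in that annotation the *H2-D1* bases shown lie within the gene.
H2-K1 upstream: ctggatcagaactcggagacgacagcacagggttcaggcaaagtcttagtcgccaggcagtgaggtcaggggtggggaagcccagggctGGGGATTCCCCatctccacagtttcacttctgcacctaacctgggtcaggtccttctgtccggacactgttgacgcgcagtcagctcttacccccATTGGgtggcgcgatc
H2-D1 upstream: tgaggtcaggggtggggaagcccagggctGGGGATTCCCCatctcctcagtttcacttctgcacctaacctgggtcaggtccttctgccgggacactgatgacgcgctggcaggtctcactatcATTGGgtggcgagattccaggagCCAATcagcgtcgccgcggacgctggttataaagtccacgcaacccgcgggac
B2m upstream: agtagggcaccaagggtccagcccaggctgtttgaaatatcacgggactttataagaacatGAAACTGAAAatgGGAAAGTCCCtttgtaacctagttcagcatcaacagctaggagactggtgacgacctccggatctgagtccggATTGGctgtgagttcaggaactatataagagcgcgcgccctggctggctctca

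*H2-K1* and *H2-D1* shared, within the 200 bases shown, an identical run of 46 bases. It holds the palindromic kappa B match and spans bases from -140 of *H2-K1* and from -200 of *H2-D1*, which is the edge of the sequence shown, so its full length was not determined. From these positions on, 127 of 140 aligned bases were identical (90.7%). *B2m* held an ISRE from -139 to -130, a kappa B match from -126 to -117 and a CCAAT box from -53 to -49. In windows from 250 bases before to 50 after the start site, an ISRE match was in 2 of the 8 genes (*B2m* and *H2-T23*), a GAS match in 1 (*Psmb8*, from -97), a kappa B match in 3 (*H2-K1*, *H2-D1* and *B2m*) and a CCAAT box in 7. The shares of all 32851 promoters of the same length with these motifs were 3.44%, 8.3%, 4.51% and 37.4%. These are matches of letters and say nothing about binding in these cells. Elements that differ from the motif by even 1 base were not counted, so a gene with no match can still hold such an element.

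The spacer between *Tap1* and *Psmb9* is shown because, by RefSeq, both genes start from it, in opposite directions. It runs over the 225 bases between the start sites at 34187330 (*Psmb9*) and 34187556 (*Tap1*), at chr17:34187331-34187555, written on the plus strand. GENCODE M21 places the start of *Psmb9* at 34187764, so in that annotation these bases lie within *Psmb9*. The CCAAT box next to the RefSeq start of *Psmb9* is the single match to the 4 motifs in the spacer.
Tap1-Psmb9 spacer: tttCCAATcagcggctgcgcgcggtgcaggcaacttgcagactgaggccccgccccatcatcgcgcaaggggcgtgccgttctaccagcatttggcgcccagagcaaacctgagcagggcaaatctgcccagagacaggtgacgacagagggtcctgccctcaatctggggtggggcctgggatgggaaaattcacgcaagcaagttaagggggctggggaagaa

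The 10 genes were expressed at very different levels in the astrocyte libraries, and this order was the same after PBS and after DT. In TPM, which takes account of gene length, *B2m* was highest, followed by *H2-K1*, *H2-D1*, *Tapbp*, *Tap2*, *H2-T23*, *Tap1*, *Psmb8*, *Psmb9* and *Nlrc5*. After PBS, the libraries of neighbours in this order overlapped for *Tap1* and *Psmb8* alone. After DT they overlapped for *H2-T23* and *Tap1*, for *Tap1* and *Psmb8*, and for *Psmb9* and *Nlrc5*, so these neighbours did not differ beyond their spread. The summed level of the 10 genes was 829, 821 and 1007 TPM in the PBS libraries and 881, 885 and 976 TPM in the DT libraries, between 0.0823% and 0.101% of all TPM. *H2-K1*, *H2-D1* and *B2m* together made up 74.3% to 79.9% of this sum.

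**Figure D1:**
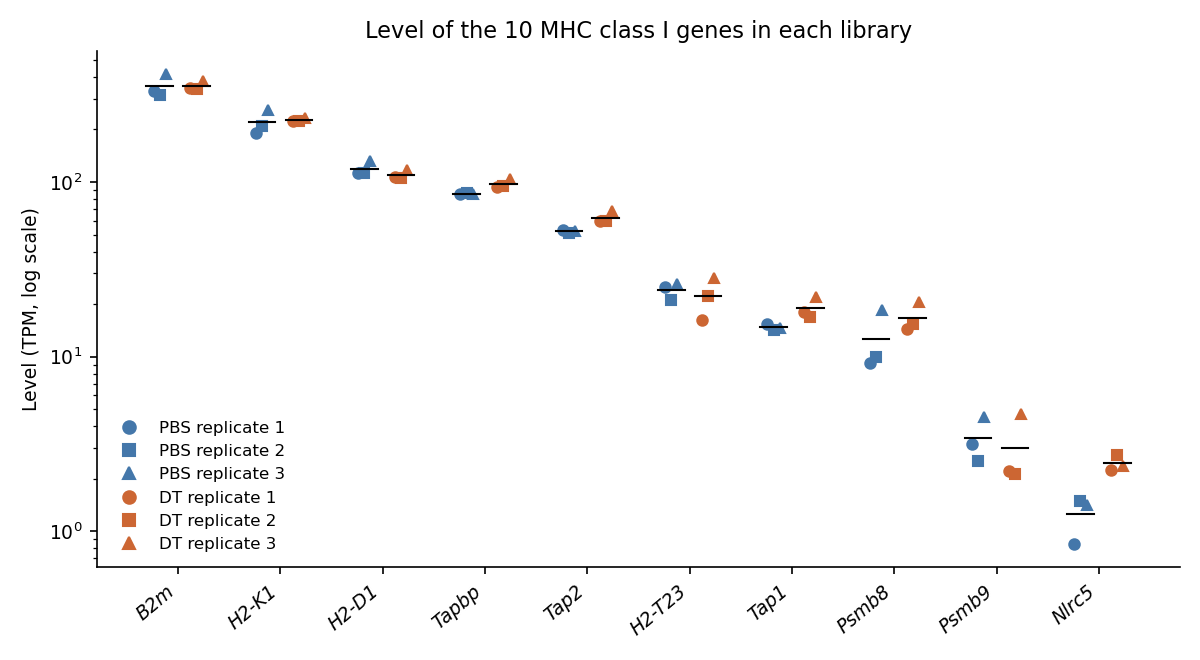
Level of each of the 10 genes in every library, in TPM on a log axis, ordered by the mean after PBS; blue, PBS; orange, DT; symbols, replicates 1 to 3; bars, group means. *B2m* lay between 314 and 414 TPM and *Nlrc5* between 0.85 and 2.75 TPM, with the DT libraries above the PBS libraries for *Tapbp*, *Tap2*, *Tap1* and *Nlrc5*.

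At day 2 after DT, no gene of the 10 passed the threshold of an adjusted p-value under 0.05, in either direction. The comparison used limma on log2(CPM + 0.1), two-sided, with Benjamini-Hochberg adjustment over the 15137 genes whose mean CPM reached 0.5, and all 10 genes passed that filter. Among all genes tested, 0.555% passed the threshold as higher (84 genes) and 0.159% as lower (24 genes). At an unadjusted p-value under 0.05, 4 of the 10 were higher (*Tap1*, *Tap2*, *Tapbp* and *Nlrc5*) and 0 lower, beside 5.91% and 4.51% of all genes tested. In the same 4 genes the DT libraries all lay above the PBS libraries, as they did in 8.75% of all genes tested, and in 0 of the 10 did they all lie below, beside 7.57%. The median log2 fold change of the 10 genes was 0.11, with 6 positive and 4 negative, beside -0.01 over all genes tested, of which 48.7% were positive. The edgeR quasi-likelihood test on the recovered reads also called 0 of the 10, where 0.575% of all genes were called higher and 0.159% lower. DESeq2 on those reads called 1, *Nlrc5*, as higher, where 1.5% of all genes were called higher and 0.648% lower. On TPM in place of CPM, limma called 0 of the 10, beside 0.482% of all genes higher and 0.145% lower. The same 4 had an unadjusted p-value under 0.05 with edgeR and with limma on TPM. For these fits the share of all genes under that p-value was not determined, so these counts cannot be set beside it.

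**Figure D2:**
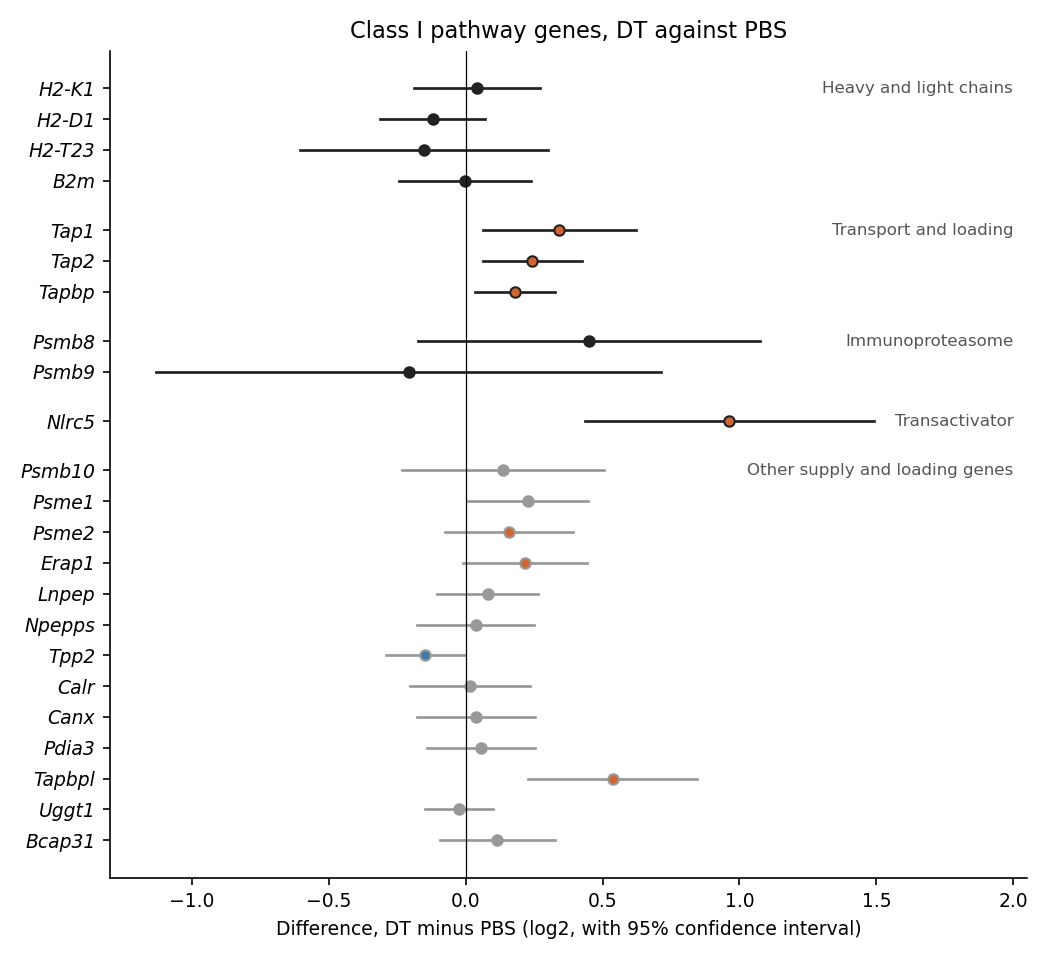
Log2 difference between DT and PBS with its 95% confidence interval (limma, log2(CPM + 0.1)) for the 10 genes, in black and grouped by role, and for 13 other genes of peptide supply and loading, in grey; orange or blue dots mark genes whose DT libraries all lay above or all below the PBS libraries. The intervals of *H2-K1*, *H2-D1*, *H2-T23* and *B2m* span 0, while those of *Tap1*, *Tap2*, *Tapbp* and *Nlrc5* lie above it (0.06 to 0.62, 0.06 to 0.42, 0.04 to 0.33 and 0.43 to 1.49).

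The chains of the class I molecule itself showed no difference that could be detected. *H2-K1*, 1 of the 2 classical heavy chains of this strain, was at 192, 208 and 259 TPM in the PBS libraries and at 222, 224 and 232 TPM in the DT libraries. The DT libraries lay within the range of the PBS libraries, with means of 220 ± 35.1 TPM (SD, n = 3) and 226 ± 5.18 TPM (SD, n = 3). The log2 fold change was 0.04 (standard error, SE, 0.10; 95% confidence interval -0.19 to 0.27, adjusted p = 0.927, limma), which bounds a change between 0.877-fold and 1.21-fold. *H2-D1*, the other classical heavy chain, was at 112, 113 and 132 TPM after PBS and at 107, 106 and 117 TPM after DT. Its groups overlapped, with means of 119 ± 11.0 TPM (SD, n = 3) and 110 ± 6.10 TPM (SD, n = 3) and a log2 fold change of -0.12 (SE 0.08, interval -0.31 to 0.07, adjusted p = 0.667, limma).

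*B2m* encodes β2-microglobulin, the light chain that all class I heavy chains need. It was at 333, 314 and 414 TPM after PBS and at 344, 341 and 376 TPM after DT. Its means were 354 ± 53.1 TPM (SD, n = 3) and 354 ± 19.3 TPM (SD, n = 3), and its log2 fold change was -0.00 (SE 0.11, interval -0.24 to 0.24, adjusted p = 0.996, limma). All 3 chains were highest of the 6 libraries in PBS replicate 3. Without that library the log2 fold change was 0.17 for *H2-K1*, 0.12 for *B2m* and -0.05 for *H2-D1* (adjusted p = 0.424, 0.623 and 0.855, limma). The unadjusted p-values of that fit were 0.0327, 0.179 and 0.559 (limma). The number of heavy-chain transcripts per light-chain transcript, as (*H2-K1* + *H2-D1*)/B2m in TPM, was 0.960 ± 0.0549 (SD, n = 3) after PBS and 0.951 ± 0.0201 (SD, n = 3) after DT (log2 difference -0.01, two-sided exact permutation test p = 0.9, adjusted over 5 ratios 0.9). For each of these ratios 3 against 3 libraries cannot give a p-value under 0.1.

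*H2-T23* encodes Qa-1, a non-classical chain that is read by inhibitory receptors of NK cells. It was at 25.03, 21.05 and 26.13 TPM after PBS and at 16.3, 22.2 and 28.3 TPM after DT. DT replicate 1 was the lowest and DT replicate 3 the highest of all 6, so the DT libraries enclosed the PBS libraries (24.1 ± 2.67 and 22.3 ± 6.04 TPM, SD, n = 3). The log2 fold change was -0.15 (SE 0.20, interval -0.61 to 0.30, adjusted p = 0.842, limma), and 0.04 without DT replicate 1 (adjusted p = 0.957, limma). Class I heavy chains are close copies of each other. Of the distinct 100-base stretches in GENCODE M21 transcripts, 4.09% for *H2-D1* and 7.28% for *H2-T23* occur also in another gene, most often *H2-Q1* and *Gm7030*, and reads from these could be divided between genes. For *H2-K1* and *B2m* this share was 0.

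*H2-K1*, *B2m* and *H2-D1* were compared over the libraries. The root-mean-square difference of their centred log2 values was 0.07 between *H2-K1* and *B2m*, 0.08 between *H2-D1* and *B2m* and 0.10 between *H2-K1* and *H2-D1*, which is a description over 6 libraries. Among 11792 genes whose mean CPM reached 5, those nearest to *H2-K1* by this measure were *D2Wsu81e*, *Efnb2* and *Olig2* (0.02 to 0.03). Those nearest to *H2-D1* were *Sptbn1*, *Ddt* and *Cobll1* (0.02 to 0.03), those nearest to *B2m* were *Fau*, *Faap24* and *Armcx4* (0.03 to 0.04), and those nearest to *H2-T23* were *Megf6*, *Eif4e3* and *Rcn3* (0.05 to 0.06).

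Markers of endothelial cells, which express class I strongly, were also read in these libraries, and like the chains they were highest of each group in replicate 3. The 12 endothelial markers summed to 850, 963 and 1339 TPM in the PBS libraries and to 718, 759 and 870 TPM in the DT libraries. In both groups replicate 2 had a higher sum of these markers than replicate 1. Between the same libraries, in TPM, *B2m* was lower in replicate 2 in both groups and *H2-K1* was higher in both. *H2-D1* was higher in replicate 2 after PBS (112.6 beside 112.3 TPM) and lower after DT (105.7 beside 107.4 TPM). Some of these directions turned in CPM. There *H2-K1* was lower in replicate 2 after DT (122.8 beside 126.8 CPM) and *H2-D1* was lower in replicate 2 after PBS (65.6 beside 67.9 CPM). All 12 markers had a negative log2 fold change (median -0.38), 0 passed the threshold and 6 had an unadjusted p-value under 0.05 as lower (limma). None of the 12 was at 0 in all libraries. Fewer cells of a type and less RNA per cell cannot be told apart in such pooled RNA, and the part of endothelial RNA in the levels of *H2-K1*, *H2-D1* and *B2m* was not tested. The 8 pericyte and mural markers summed to 1234, 889 and 1351 TPM after PBS and to 1047, 1162 and 1463 TPM after DT, also highest of each group in replicate 3, with 4 positive, 4 negative and 0 past the threshold, and their part was not tested. Microglia markers had a mean sum of 375 TPM after PBS and 198 TPM after DT. Markers of border-associated macrophages went the other way, with 30.1 TPM after PBS and 81.6 TPM after DT. The part of both cell types in the levels of *H2-K1*, *H2-D1* and *B2m* was not tested. A list of 10 T and NK cell markers summed to 0.359 to 1.70 TPM after PBS and 0.617 to 0.746 TPM after DT. Of these, *Cd3e*, *Cd3d*, *Cd3g*, *Nkg7* and *Klrd1* were at 0 in every library. *Cd4* had 2 to 24 reads in each library, and *Cd8a*, *Cd8b1*, *Gzmb* and *Prf1* had at most 8 reads in any.

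**Figure D3:**
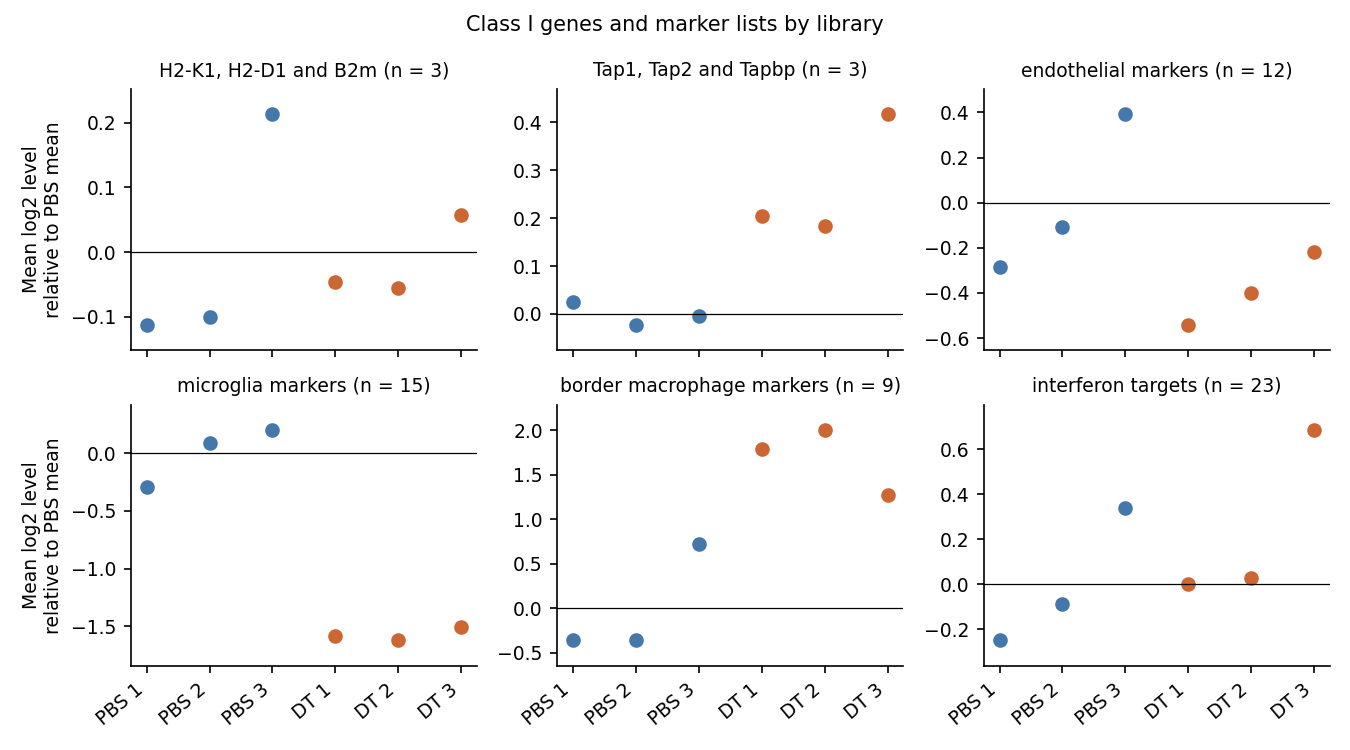
Mean log2(TPM + 0.1) of 6 sets of genes in each library, relative to the mean of the PBS libraries; blue, PBS; orange, DT; n, genes in the set; each panel has its own vertical axis. The classical chains (-0.11 to 0.21) were highest in PBS replicate 3 and *Tap1*, *Tap2* and *Tapbp* (-0.02 to 0.42) in DT replicate 3, where the interferon targets were also highest (0.69).

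The genes for peptide transport and loading stood higher in all DT libraries, by small amounts. *Tap1* and *Tap2* encode the partner chains of the peptide transporter, and *Tapbp* encodes tapasin. *Tap1* was at 15.4, 14.2 and 14.6 TPM after PBS and at 18.1, 16.9 and 21.9 TPM after DT. Its DT libraries lay above its PBS libraries, with means of 19.0 ± 2.62 TPM and 14.7 ± 0.584 TPM (SD, n = 3). The log2 fold change was 0.34 (SE 0.12, interval 0.06 to 0.62, adjusted p = 0.390, limma).

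*Tap2* was at 53.2, 50.9 and 52.6 TPM after PBS and at 59.4, 59.8 and 68.4 TPM after DT. Again the groups did not overlap, with means of 52.3 ± 1.17 TPM and 62.6 ± 5.08 TPM (SD, n = 3), and the log2 fold change was 0.24 (SE 0.08, interval 0.06 to 0.42, adjusted p = 0.341, limma). *Tapbp* was at 84.8, 86.5 and 85.0 TPM after PBS and at 94.0, 95.1 and 105 TPM after DT. Relative to their mean, its PBS libraries were the closest together of the 10 genes, with means of 85.4 ± 0.958 TPM after PBS and 97.9 ± 5.83 TPM after DT (SD, n = 3), and the log2 fold change was 0.18 (SE 0.06, interval 0.04 to 0.33, adjusted p = 0.380, limma). The 3 genes summed to 153, 152 and 152 TPM after PBS and to 171, 172 and 195 TPM after DT.

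All 3 were highest in DT replicate 3. Without it their log2 fold changes were 0.24 for *Tap1*, 0.18 for *Tap2* and 0.14 for *Tapbp*, and their unadjusted p-values in limma, which had been 0.0222, 0.0141 and 0.0205, became 0.0872, 0.0589 and 0.0848. Without PBS replicate 2 these p-values were 0.0665, 0.0498 and 0.0508 (limma). They stayed under 0.05 when any other library was left out. The ratio of *Tap1* to *Tap2* was 0.282 ± 0.00631 (SD, n = 3) after PBS and 0.303 ± 0.0187 (SD, n = 3) after DT, and its libraries overlapped (log2 difference 0.10, two-sided exact permutation test p = 0.2, adjusted over 5 ratios 0.5). *Tap2* and *Tapbp* were the nearest pair among the 10 genes (root-mean-square difference 0.05 over 6 libraries). The genes nearest to *Tapbp* in the whole table were *Ccdc102a*, *Micu2* and *Atic* (0.02 to 0.03).

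The microglia and endothelial markers had lower mean sums after DT than after PBS (198 and 375 TPM for microglia, 782 and 1051 TPM for endothelium), and their part in the levels of these 3 genes was not tested. Markers of border-associated macrophages stood higher in all DT libraries, with sums of 23.9 to 38.3 TPM after PBS and 71.6 to 92.5 TPM after DT. All 8 of these markers that were tested had a positive log2 fold change and 3 passed the threshold (*Mrc1*, *Lyve1* and *F13a1*). The sums in DT replicates 1, 2 and 3 were 80.8, 92.5 and 71.6 TPM. The part of these macrophages in the levels of *Tap1*, *Tap2* and *Tapbp* was not tested. Ependymal markers also stood higher in the DT libraries, with sums of 481 to 589 TPM after PBS and 645 to 1045 TPM after DT, 6 of 6 positive, 0 past the threshold and the highest sum in DT replicate 3. Choroid plexus markers summed to 393, 2031 and 108 TPM after PBS and to 3431, 2335 and 1260 TPM after DT, with 7 of 7 positive, 0 past the threshold and the highest sum in DT replicate 1. The part of ependymal and choroid plexus RNA was not tested either. The 12 astrocyte markers had a median log2 fold change of 0.04, and 1, *Gfap*, passed the threshold.

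The immunoproteasome subunits were low beside the constitutive subunits whose places they take. *Psmb8*, which replaces *Psmb5*, was at 9.17, 9.96 and 18.5 TPM after PBS and at 14.4, 15.3 and 20.5 TPM after DT. PBS replicate 3 lay among the DT libraries, and the means were 12.5 ± 5.18 TPM and 16.8 ± 3.29 TPM (SD, n = 3). The log2 fold change was 0.45 (SE 0.27, interval -0.17 to 1.08, adjusted p = 0.621, limma), from 85 to 194 reads per library. Single libraries moved it, to 0.76 without PBS replicate 3 (adjusted p = 0.262, limma), 0.28 without PBS replicate 1, 0.31 without PBS replicate 2 and 0.30 without DT replicate 3.

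*Psmb9*, which replaces *Psmb6*, was at 3.18, 2.52 and 4.52 TPM after PBS and at 2.22, 2.13 and 4.68 TPM after DT. DT replicate 3 and PBS replicate 3 were the highest, and the groups overlapped (3.41 ± 1.02 and 3.01 ± 1.45 TPM, SD, n = 3). It had 15 to 30 reads per library, and the interval of its log2 fold change ran from -1.13 to 0.71 (log2 fold change -0.21, SE 0.40, adjusted p = 0.899, limma). With each library left out the log2 fold change lay between -0.53 (without DT replicate 3) and -0.00023 (without PBS replicate 3), and it was also moved by over 1.5 times without PBS replicate 2 (-0.40), DT replicate 1 (-0.08) or DT replicate 2 (-0.01). *Tap1*, which starts from the other end of the spacer shown above, lay higher in each DT library (0.34), but the difference between these 2 genes in their response was not tested.

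*Psmb5*, the constitutive partner of *Psmb8*, stood at 44.97 to 53.26 TPM after PBS and 45.6 to 56.4 TPM after DT. The ratio of *Psmb8* to *Psmb5* was 0.172, 0.208 and 0.412 in the PBS libraries and 0.262, 0.272 and 0.450 in the DT libraries. Replicate 3 was the highest in both groups, and the groups overlapped (log2 difference 0.37, two-sided exact permutation test p = 0.4, adjusted over 5 ratios 0.5). The log2 difference was 0.12 without PBS replicate 1, 0.12 without DT replicate 3 and 0.75 without PBS replicate 3. The ratio of *Psmb9* to *Psmb6* was 0.0204 ± 0.00502 (SD, n = 3) after PBS and 0.0167 ± 0.00711 (SD, n = 3) after DT (log2 difference -0.33, exact p = 0.4, adjusted 0.5), and its log2 difference lay between -0.66 (without DT replicate 3) and -0.16 (without DT replicate 1) with each library left out. *Psmb10*, the remaining immune subunit, had a ratio to *Psmb7* of 0.241 ± 0.0304 (SD, n = 3) after PBS and 0.284 ± 0.0438 (SD, n = 3) after DT (log2 difference 0.23, exact p = 0.3, adjusted 0.5), with 0.13 to 0.37 when each library was left out. The libraries of all 3 ratios overlapped between the groups.

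**Figure D4:**
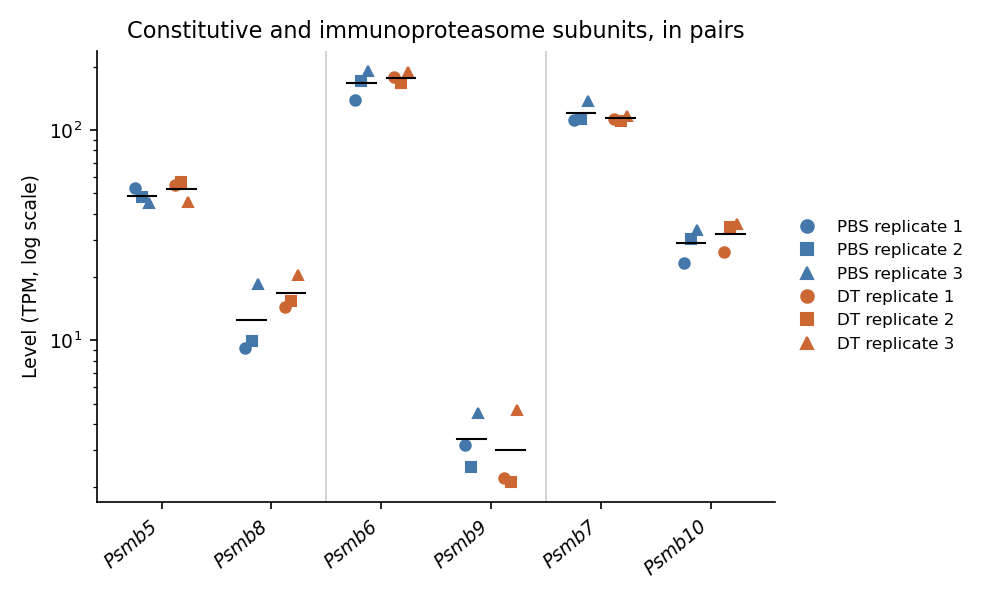
Levels in TPM, on a log axis, of each constitutive proteasome subunit and, to its right, the immune subunit that takes its place; blue, PBS; orange, DT; symbols, replicates 1 to 3; bars, group means. In each library the immune subunit lay below its partner, from 0.0124 for *Psmb9* to *Psmb6* up to 0.450 for *Psmb8* to *Psmb5*.

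*Nlrc5* had the greatest log2 fold change of the 10 genes and the lowest level. It was at 0.85, 1.49 and 1.43 TPM after PBS and at 2.24, 2.75 and 2.37 TPM after DT. All DT libraries lay above all PBS libraries, with means of 1.26 ± 0.353 TPM and 2.46 ± 0.264 TPM (SD, n = 3). These values rest on 45, 116 and 74 reads after PBS and on 124, 196 and 128 reads after DT. The log2 fold change was 0.96 (SE 0.23, interval 0.43 to 1.49), a 1.95-fold difference on the scale of log2(CPM + 0.1), with an unadjusted p-value of 0.00277 and an adjusted one of 0.172 in limma. DESeq2 on the recovered reads gave 0.95 with an adjusted p-value of 0.0228. Over all alternatives, including each library left out, the log2 fold change lay between 0.73 and 1.09 and the adjusted p-value between 0.0228 and 0.451. The lowest log2 fold change was the one without PBS replicate 1. Markers of border-associated macrophages, ependyma and choroid plexus had higher mean sums after DT, and those of microglia and endothelium lower ones. The part of these cells in the level of *Nlrc5* was not tested, so the difference cannot be assigned to astrocytes.

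Among other class I heavy chains, 15 were listed and 8 tested, and 0 passed the threshold in either direction (0 at an unadjusted p-value under 0.05, limma; median log2 fold change -0.15). *H2-T24* was the most abundant, at 15.0 to 19.3 TPM after PBS and 13.8 to 15.8 TPM after DT, followed by *H2-Q4* (9.72 to 19.9 TPM after PBS and 12.9 to 16.8 TPM after DT). *H2-T22* was at 3.23 to 7.77 TPM after PBS and 2.20 to 3.81 TPM after DT. *H2-Q10*, *H2-M1*, *H2-M2*, *H2-T3* and *H2-Bl* had no read in any library. These genes lay far below *H2-K1* and *H2-D1*, where none of them reached the lowest value of *H2-T23* after PBS, and many of them are close copies whose reads are uncertain. The class I-like genes gave 0 of 5 past the threshold (1 lower at an unadjusted p-value under 0.05, limma), with the neonatal Fc receptor gene *Fcgrt* at 141 to 154 TPM after PBS and 132 to 136 TPM after DT, a log2 fold change of -0.16 (adjusted p = 0.459, limma).

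Of 13 further genes of peptide supply and loading, 0 passed the threshold (2 higher and 1 lower at an unadjusted p-value under 0.05, limma; median log2 fold change 0.08). The chaperones *Calr*, *Canx* and *Pdia3*, which serve all glycoproteins of the endoplasmic reticulum, were the most abundant, and their log2 fold changes were 0.02, 0.04 and 0.06. *Tapbpl*, the gene of the tapasin relative TAPBPR, is named after its values were seen. It was at 9.44, 10.8 and 11.8 TPM after PBS and at 14.2, 15.8 and 17.1 TPM after DT, with no overlap between the groups and a log2 fold change of 0.54 (SE 0.14, adjusted p = 0.188, limma). The 14 constitutive proteasome subunits ranged from -0.10 to 0.09 around a median log2 fold change of 0.01, and 0 passed the threshold (0 at an unadjusted p-value under 0.05, limma).

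The regulators that act at class I promoters with NLRC5, or downstream of interferon and NF-kappa B, gave 0 of 14 past the threshold (2 higher and 1 lower at an unadjusted p-value under 0.05, limma; median log2 fold change -0.01). *Rfxank*, a subunit of the RFX complex through which NLRC5 reaches DNA, was at 44.7 to 47.6 TPM after PBS and 36.0 to 39.3 TPM after DT, a log2 fold change of -0.30 (SE 0.07, adjusted p = 0.168, limma). *Nfyc*, a subunit of the factor that binds the CCAAT box, was at 0.03, and *Rela*, an NF-kappa B subunit, at 0.18 with an adjusted p-value of 0.426 (limma). *Irf9*, a DNA-binding factor of the interferon response, is named after its values were seen. It was at 35.9, 36.5 and 34.5 TPM after PBS and at 48.7, 48.2 and 45.9 TPM after DT, with no overlap and a log2 fold change of 0.41 (SE 0.07, adjusted p = 0.0578, limma).

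Interferon signaling was read from its parts and from its targets. *Ifng* and *Ifnb1*, the genes of interferon gamma and beta, had no read in any library, which allows up to 3 reads in each. Interferon protein, and interferon made by cells outside these libraries, were not measured. The receptors and kinases gave 0 of 7 past the threshold (0 at an unadjusted p-value under 0.05, limma), with *Jak1*, *Ifnar2* and *Ifngr1* at log2 fold changes of 0.03, 0.03 and -0.12. Of 22 interferon targets tested, 1 rose past the threshold, *Irgm1*, an interferon-inducible GTPase, from 24.1 to 30.8 TPM after PBS to 46.3 to 56.0 TPM after DT (log2 fold change 0.85, SE 0.12, adjusted p = 0.0194, limma). The median log2 fold change of the list was 0.15, with 16 positive and 6 negative, and 4 had an unadjusted p-value under 0.05 as higher. Its summed level was 323, 342 and 430 TPM after PBS and 402, 431 and 597 TPM after DT. This sum was highest of each group in replicate 3, as were *B2m*, *H2-K1*, *H2-D1*, *H2-T23*, *Psmb8* and *Psmb9*. After PBS, *Tap1* and *Tap2* were highest in replicate 1 (15.4 and 53.2 TPM). *Tapbp* and *Nlrc5* were highest in PBS replicate 2 (86.5 and 1.49 TPM). After DT, *Tap1*, *Tap2* and *Tapbp* were highest in replicate 3 and *Nlrc5* in replicate 2 (2.75 TPM). The part of interferon in these levels was not tested.

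The class II genes, which present peptides from outside the cell, were near the lower end of the levels tested. Of 9 genes 4 were tested and 0 passed the threshold (0 at an unadjusted p-value under 0.05, limma), with *H2-Ab1* at 1.51 to 4.47 TPM after PBS and 2.30 to 2.90 TPM after DT. Their summed level was 8.80 to 13.3 TPM after PBS and 10.1 to 11.6 TPM after DT, beside 829 to 1007 TPM and 881 to 976 TPM of the 10 class I pathway genes. *H2-D1*, *H2-T23* and *Psmb8* are also used as markers of A1-type reactive astrocytes, and their log2 fold changes of -0.12, -0.15 and 0.45 did not pass the threshold.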

How the data were processed

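RNA-seq of 3 PBS and 3 DT libraries of MACS-isolated hippocampal astrocytes was analysed from 2 deposited tables. Per the labels and methods, the authors used Trim Galore 0.5.0, FastQC 0.11.8, HISAT2 2.1.0 on mm10, bedtools 2.25.0 to remove ribosomal reads, StringTie 1.3.5, and edgeR 3.24.3 in R 3.5.1. The authors deposited TPM, and a CPM signal that is relative to library sizes scaled by factors of 0.974 to 1.02, where the design had assumed plain CPM, so columns sum to between 980428 and 1026170. The log2 fold changes and the p-values and q-values of the authors' own comparison, which the deposited tables also hold, were not used. Of the gene names, 27 read as dates.

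From the deposited CPM, log2(CPM + 0.1) of genes reaching a mean CPM of 0.5 was compared with limma 3.58.1 in R 4.3.3 (variance trend, two-sided, Benjamini-Hochberg adjustment). Because of the pseudocount, this understates the change of low genes. Whole reads were recovered for 100% of values (within 0.0006 CPM). On them edgeR 4.0.16 called 87 genes higher and 24 lower, and DESeq2 1.42.0 called 227 and 98. Labels name separate libraries, from pools of 2 mice. The methods speak of independent experiments, but p-values measure the spread between these libraries. Coordinates are those of GENCODE M21.

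The 10 genes and the lists were chosen with earlier results of these data known. The text names all 10 genes, list members past the threshold or, in lists with none, up to 3 with the highest TPM, and for 5 genes the 3 nearest genes by level. Others are marked as chosen later. Alternatives were pseudocounts of 0.5 and 1, no filter on low values or one at a mean CPM of 2, TPM in place of CPM, quantile normalization, a fit with no variance trend, a replicate block, each library left out, edgeR and DESeq2.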

Additional observations from a re-analysis of the deposited data

How the results depend on the processing

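Under 16 alternatives, 150 of 159 log2 fold changes of the 10 genes stayed on the same side of 0 and of the threshold, as did the sign of their median, and all 35 ratio values moved by less than the spread between replicates. *Psmb9* was not in the fit at a mean CPM of at least 2. Of the 10 genes, 1 was called higher with DESeq2 (*Nlrc5*). The genes called higher numbered 35 without the variance trend and 227 with DESeq2, and those lower 11 and 98. With each library left out they ranged from 39 to 72 (39 without DT replicate 1 and 40 without DT replicate 2) and from 9 to 20 (11, 9 and 10 without PBS replicates 1, 2 and 3, and 10 without DT replicate 2). These fits have fewer samples.

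The direction turned for *B2m*, *H2-K1* and *H2-T23*. *B2m* was at 0.0107 with TPM and 0.0198 with quantile normalization, and ranged from -0.0947 to 0.116 with libraries left out (positive without PBS replicate 3, DT replicate 1 or DT replicate 2). *H2-K1* ranged from -0.0363 to 0.166 (-0.0363 without PBS replicate 1 and -0.00432 without PBS replicate 2) and *H2-T23* from -0.340 to 0.0388 (0.0388 without DT replicate 1). The cause was not tested. The number of the 10 genes with an unadjusted p-value under 0.05 (limma) was 4 in the main fit and 5 with the replicate number as a block. It was 2 without PBS replicate 2, 6 without PBS replicate 3 and 1 without DT replicate 3. The share of all genes under that p-value was determined for the main fit alone, so the other counts cannot be set beside it.

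Replicate numbers are not said to mark an experiment, and deviations of same-numbered libraries correlated at 0.115, 0.0105 and 0.118, so they were not taken as pairs. PBS replicates 1 and 3 and DT replicates 1 and 3 correlated best with their own numbers, and replicates 2 did not. With the replicate number as a block, 79 genes were called higher and 30 lower, and 0 of the 10. The fewest reads were those of *Psmb9* and *Nlrc5*, with as few as 15 and 45 in a library.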
